A study of Homo sapiens with 6 samples.

Results

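The genes described here are 38 genes of the endoplasmic reticulum (ER): sensors of unfolded protein, luminal folding enzymes, the translocon and its partners, and the machinery of ER-associated degradation (ERAD). They were taken by gene symbol from the authors' deposited comparison table, which held 13008 genes, and all 38 were found there. Heat shock (HSP) and DNAJ genes were left out of the selection. All 38 also passed the filter on low values (10 or more normalised counts in 3 or more libraries), so none is missing from the counts below. Polyadenylated RNA had been sequenced from Tet-FLAG-FOXM1c-hTERT-RPE1 cells, telomerase-immortalised human retinal pigment epithelial cells whose line name gives a Tet-controlled, FLAG-tagged FOXM1c, and the promoter is not described in the labels. The dox group (3 libraries, genotype label FOXM1 overexpression) was kept in doxycycline for 48 h, with 1 µg/mL added every 24 h, and the no dox group (3 libraries, genotype label WT, same line name) received none. Both groups carry 1 line name, which the labels do not call a clone or a pool, and doxycycline in cells that lack this transgene was not analysed here, so effects of the drug and of FOXM1 cannot be told apart.

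Secreted and membrane proteins enter the ER through the SEC61 channel, fold there with the help of lectin chaperones and disulfide isomerases, and leave in COPII vesicles, while chains that fail to fold are pulled back to the cytosol by ERAD. When unfolded chains build up, 3 sensors (ATF6, ERN1, also called IRE1, and PERK) switch on the unfolded protein response (UPR), in which cleaved ATF6 and spliced XBP1 raise the transcription of folding and ERAD genes. FOXM1 is a forkhead transcription factor of the dividing cell, and the comparison asks whether its induction moved these ER genes. Counts per gene do not separate spliced from unspliced XBP1 mRNA, nor do they read cleavage of ATF6.

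Values of single libraries are given in the order of replicates 1, 2 and 3. The dox libraries held 41719959, 49882123 and 25148936 reads, and the no dox libraries held 31307141, 32280300 and 15094498. Between 14 reads (DERL3) and 60657 reads (CALR) per library stood behind a member's value. FOXM1 checked the labels: it had 65289, 66830 and 74976 normalised counts in dox libraries, against 5009, 4383 and 4292 in no dox libraries, a log2 difference of 3.92 (SE 0.10, limma adjusted p = 4.49e-06). Of the markers of differentiated pigment epithelium, RPE65, BEST1, RLBP1, LRAT, TYR, TYRP1, DCT, PMEL, SERPINF1 and TTR were at or below 0.220 FPKM in all libraries, while MITF and OTX2 lay between 1.91 and 3.14 FPKM. The keratin gene KRT18 lay at 42.1 to 65.2 FPKM in dox and 34.6 to 50.4 FPKM in no dox libraries, while EPCAM was listed at 0. Separate cultures are not named in the labels, so the p-values reflect only how these libraries varied, which may be technical.

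The promoters of several members hold the letters that the UPR factors are known to bind, and these are shown first because members that carry them were called in opposite directions in the paired comparison below. RefSeq promoters of the GRCh38.p14 build (250 bases before to 50 after the start site) were matched for 34 of the 38 genes, the others being DERL1, DERL3, PDIA3 and SEC24D. Both strands were searched for the ER stress response element ERSE (CCAAT and CCACG with 9 bases between), for ERSE-II (ATTGG and CCACG with 1 base between) and for the UPR element UPRE (TGACGTGG). ERSE stood in 5 members, against 22 of 27305 promoters in all (0.0806%), and ERSE-II in 3 members, against 15 of 27305 (0.0549%). UPRE stood in HYOU1, where it overlaps the upstream ERSE-II, and in TXNDC11, against 0.795% of all promoters. The matched elements follow with up to 12 bases on either side, each read in the direction of the motif, with the match in capitals.
CALR ERSE, chr19:12938372-12938414 (- strand): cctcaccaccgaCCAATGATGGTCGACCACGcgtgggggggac
CANX ERSE, chr5:179698766-179698808 (+ strand): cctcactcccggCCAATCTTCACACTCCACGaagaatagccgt
XBP1 ERSE, chr22:28800591-28800633 (- strand): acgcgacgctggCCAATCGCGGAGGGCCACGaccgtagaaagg
CRELD2 ERSE, chr22:49918542-49918584 (- strand): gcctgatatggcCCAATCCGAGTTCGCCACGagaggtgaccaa
ERO1LB ERSE, chr1:236282171-236282208 (+ strand): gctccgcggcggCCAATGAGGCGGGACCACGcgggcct
HYOU1 ERSE-II, chr11:119057368-119057402 (+ strand): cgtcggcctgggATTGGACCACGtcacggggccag
HYOU1 ERSE-II, chr11:119057262-119057296 (+ strand): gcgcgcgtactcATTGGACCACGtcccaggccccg
HERPUD1 ERSE-II, chr16:56932013-56932047 (+ strand): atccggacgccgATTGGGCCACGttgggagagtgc
SDF2L1 ERSE-II, chr22:21642102-21642136 (- strand): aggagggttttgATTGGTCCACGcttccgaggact
HYOU1 UPRE, chr11:119057374-119057405 (- strand): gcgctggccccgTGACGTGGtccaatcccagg
TXNDC11 UPRE, chr16:11742833-11742864 (- strand): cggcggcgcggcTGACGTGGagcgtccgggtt

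HYOU1 held ERSE-II in 2 places, with matches that begin 185 and 79 bases before the start site. The whole promoters of HYOU1, SDF2L1 and CALR are shown because these 3 genes combine an element with a call in the paired comparison below. The capitals mark ERSE, ERSE-II and UPRE on either strand, and each promoter is read along its gene.
HYOU1 promoter, chr11:119057156-119057455 (- strand): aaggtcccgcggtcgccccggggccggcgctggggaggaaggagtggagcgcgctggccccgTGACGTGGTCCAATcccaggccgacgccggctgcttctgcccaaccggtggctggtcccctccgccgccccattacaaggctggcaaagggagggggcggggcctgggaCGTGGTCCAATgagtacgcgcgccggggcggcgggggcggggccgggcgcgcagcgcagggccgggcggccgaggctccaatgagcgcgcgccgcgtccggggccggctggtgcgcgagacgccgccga
SDF2L1 promoter, chr22:21642052-21642351 (+ strand): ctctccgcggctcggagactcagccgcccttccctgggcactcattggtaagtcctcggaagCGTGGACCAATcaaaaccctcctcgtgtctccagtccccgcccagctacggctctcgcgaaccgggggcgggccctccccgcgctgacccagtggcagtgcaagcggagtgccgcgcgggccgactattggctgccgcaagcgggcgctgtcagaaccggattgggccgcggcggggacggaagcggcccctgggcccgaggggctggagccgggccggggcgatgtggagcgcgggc
CALR promoter, chr19:12938359-12938658 (+ strand): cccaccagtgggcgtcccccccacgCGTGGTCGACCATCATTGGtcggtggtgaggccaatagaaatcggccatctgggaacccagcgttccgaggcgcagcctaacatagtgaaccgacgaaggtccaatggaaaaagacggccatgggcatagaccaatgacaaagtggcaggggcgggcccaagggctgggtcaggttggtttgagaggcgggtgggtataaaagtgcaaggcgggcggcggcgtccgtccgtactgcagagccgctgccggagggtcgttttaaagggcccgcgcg
The forkhead core TAAACA stood in 1 of the 34 promoters (ATF6), against 12.4% of all promoters, the cell cycle element CHR (TTTGAA) in PDIA6 and ATF6, against 15.4%, and the composite ATF4 letters TTGCATCA in HERPUD1, against 0.923%. A match is a description of letters and not of binding.

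Calreticulin, CALR, a calcium-binding lectin chaperone, had the highest level per length of the 38 genes, with 19396 normalised counts per kilobase of exon in dox and 21888 in no dox libraries. Next came P4HB, the founding protein disulfide isomerase, with 10524 in dox and 9929 in no dox libraries, and CANX, the membrane-bound lectin calnexin, with 6637 in dox and 6286 in no dox libraries, all per kilobase. Lengths here are merged exons of protein-coding transcripts in GENCODE 29. The gene width behind the authors' FPKM values was 1.00 to 16.1 times that length among the members (median 3.42), and P4HB ranked 5 and CANX ranked 7 among the members by FPKM, while CALR kept rank 1. At the low end were DERL3, a derlin of secretory tissues, ERN1, and ERO1LB, the second ER oxidase, with 11.9, 15.7 and 24.6 normalised counts per kilobase over all 6 libraries. DERL3 overlaps SMARCB1 and ERO1LB overlaps GPR137B on the opposite strand, so their reads are less certain.

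**Figure D1:**
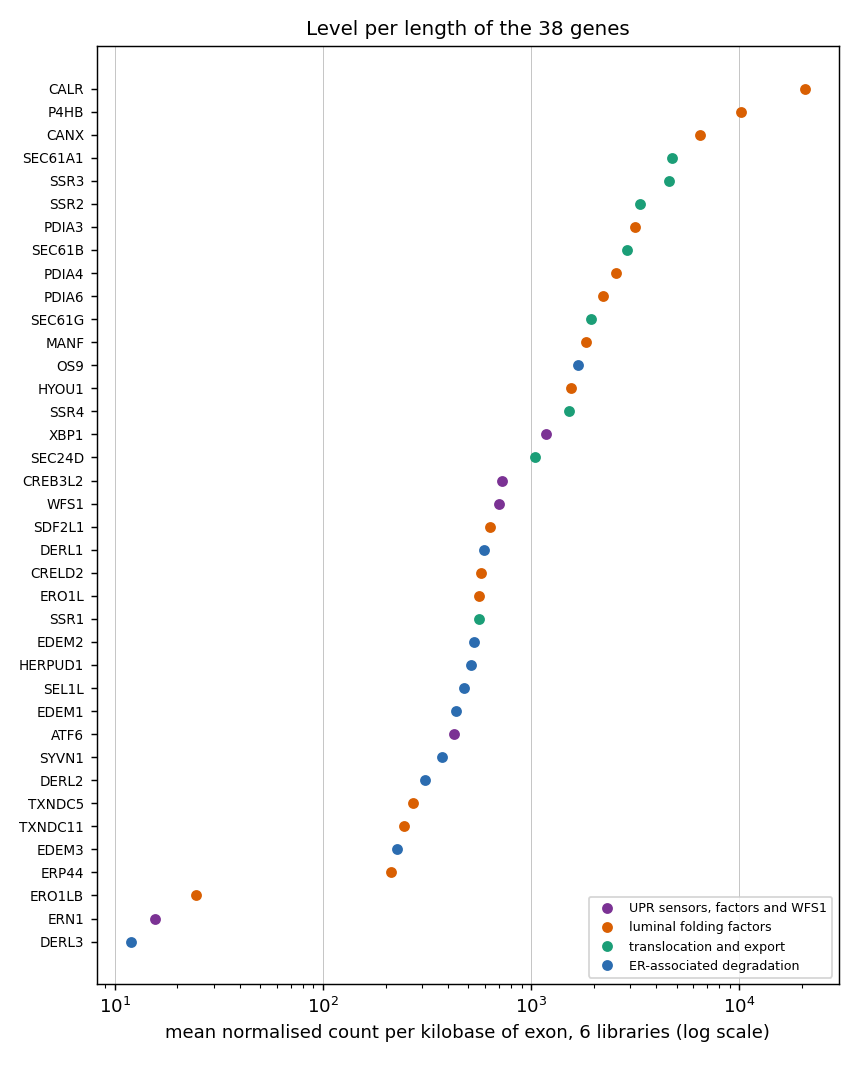
Mean normalised count per kilobase of merged exon over the 6 libraries (x axis, log scale) for each of the 38 genes (y axis), coloured by role. Folding enzymes and translocon subunits fill the upper end, led by CALR, and DERL3, ERN1 and ERO1LB lie below all the others.

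No ER gene of the 38 passed limma without a block (adjusted p under 0.05 over 13153 tested genes), where 71 genes or 0.54% passed. The smallest adjusted p of a member was 0.288, for ERO1L. At an unadjusted limma p under 0.05 stood 3 members (ERO1L, SSR4 and TXNDC5), 7.89% of the 38, against 13% of all tested genes. On recovered reads edgeR's quasi-likelihood test called 0 members and 0.515% of all genes, and DESeq2 called 0 members and 4% of all genes. The authors' deposited table gave an adjusted p under 0.05 to 0 members and to 361 of its 13008 genes (2.78%), and in it ERO1L had the smallest p (0.00842, adjusted p = 0.179). Of the 38 log2 differences 17 were above and 21 below 0, from -0.37 for ERO1L to 0.33 for SDF2L1. Their median was -0.026, beside -0.0022 over all tested genes. All dox libraries exceeded all no dox libraries for 2 of the 38 (EDEM2 and OS9, 5.26%), and fell below them for 3 (ERO1L, TXNDC5 and PDIA6, 7.89%), against 9.03% and 10% of all tested genes. In bulk RNA fewer cells with a transcript and less of it per cell cannot be told apart.

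The intervals of limma without a block give a range for each gene, taken 1 gene at a time and only as these libraries varied. The 95% interval of the log2 difference lay within a 1.5-fold change in either direction for 32 of the 38 genes and within a 2-fold change for all 38. The 6 whose intervals passed 1.5-fold were ERO1L, SDF2L1, HYOU1, ERN1, CRELD2 and DERL3. As a share of all normalised counts the 38 genes summed to 0.793% ± 0.055 in the dox group and 0.800% ± 0.049 in the no dox group (± SD, n = 3 each).

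Once limma took the replicate number as a block, 9 of the 38 genes were called, 3 higher and 6 lower. The labels do not state that the numbers pair the libraries. A pairing was inferred from these same values, since libraries that share a number deviated from their group means in the same way. The background was 22.5% of all tested genes in either direction (10.2% higher, 12.4% lower), against 23.7% of the 38 (7.89% higher, 15.8% lower), so the share called among these genes is near that among all genes. The quasi-likelihood test of edgeR with the same block called the same 9 genes. HYOU1, ERO1L and SSR4 were called whichever of the 3 pairs was left out. The 3 fits share pairs with each other, so they are not independent repeats. The full limma fit with the block had 2 residual degrees of freedom per gene, and the fits without a pair had fewer. Over all 13153 tested genes those fits called 3835 without pair 1, 1414 without pair 2 and 1779 without pair 3. How many of all genes kept a call in each of the 3 fits was not counted. The other 6 each kept the call in 1 of those 3 fits, TXNDC5 without pair 3 and PDIA3, PDIA6, CALR, SDF2L1 and CREB3L2 without pair 1.

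**Figure D2:**
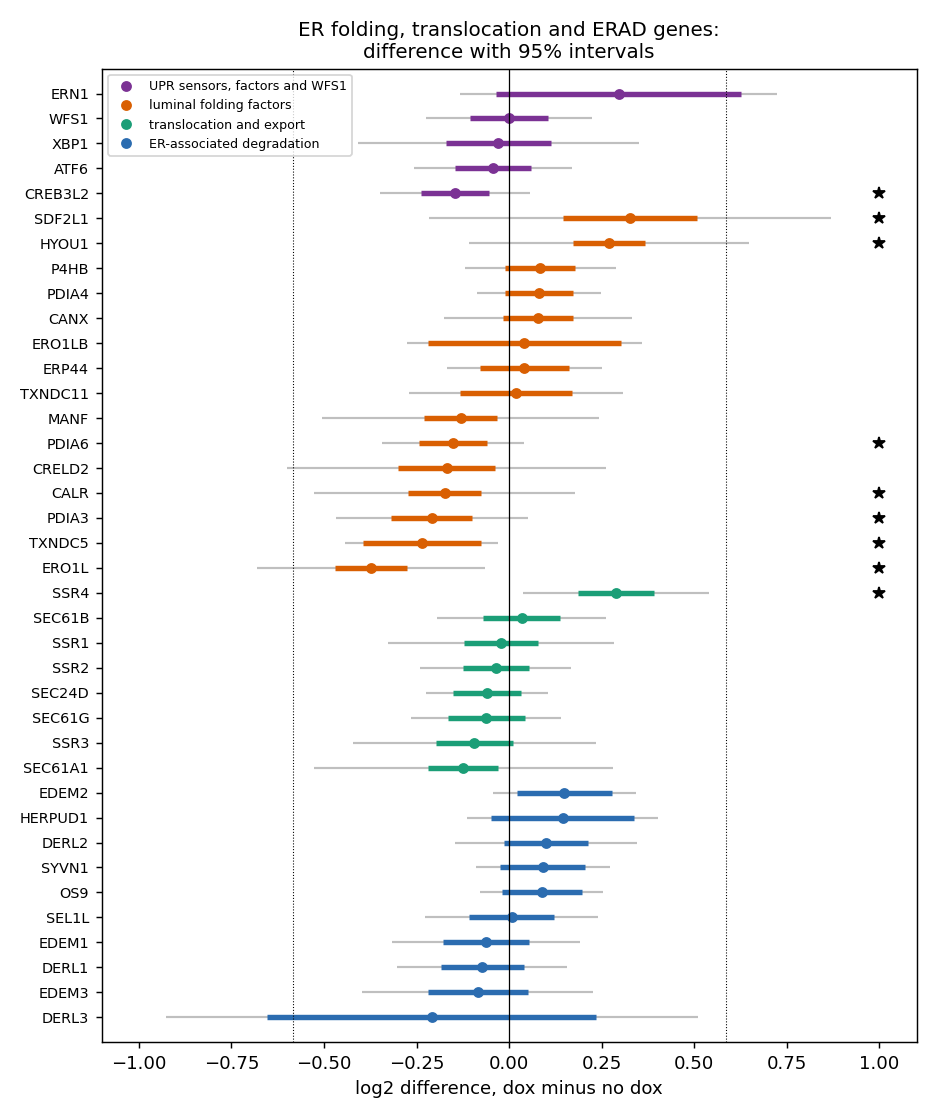
Log2 difference of dox minus no dox (x axis) for each gene (y axis), grouped and coloured by role, with 95% limma intervals in grey without a block and in colour with the replicate number as a block. Stars at the right edge mark the 9 genes called with the block, dotted lines mark a 1.5-fold change, and every difference lies between -0.37 and 0.33.

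Among the luminal folding factors, 5 of 15 fell and 2 rose with the block, against 12.4% and 10.2% of all tested genes. The largest fall was in ERO1L (ERO1-alpha, the oxidase that hands oxidising equivalents to protein disulfide isomerases), a gene of chromosome 14 from 53106634 to 53162618 in hg19. ERO1L had 2253, 2730 and 2862 normalised counts in dox libraries, against 2880, 3433 and 3869 in no dox libraries. The groups did not overlap, and all 3 pairs were lower in dox. The log2 difference was -0.37 (SE 0.13, limma adjusted p = 0.288), with an SE of 0.044 and an adjusted p of 0.000462 with the block. Its paralogue ERO1LB averaged 114.0 ± 5.99 normalised counts in the dox group and 110.7 ± 5.03 in the no dox group (± SD, n = 3 each). Whether the 2 oxidases differ in response was not tested.

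Of the disulfide isomerases, 3 fell with the block, against 12.4% of all tested genes, and the others did not pass. PDIA3 (ERp57, which acts on glycoproteins held by calnexin and calreticulin) had 10885, 10123 and 11722 normalised counts in dox libraries, against 11615, 11816 and 14542 in no dox libraries. The groups overlapped narrowly, and no dox replicate 3 was the highest. The log2 difference was -0.21 (SE 0.11, limma adjusted p = 0.500, and 0.0134 with the block). Without no dox replicate 3 the unpaired difference of PDIA3 was -0.11. PDIA6, an isomerase that also binds the sensor IRE1, had 7535, 6823 and 7472 normalised counts in dox libraries, against 8625, 7659 and 7987 in no dox libraries. The groups did not overlap, and the log2 difference of -0.15 had a limma adjusted p of 0.508, or 0.0250 with the block. TXNDC5 (ERp46) had 750.6, 787.8 and 864.4 normalised counts in dox libraries, against 999.8, 930.3 and 897.5 in no dox libraries. Its pairs were uneven, at -0.41, -0.24 and -0.05 on the log2 scale, and the limma adjusted p was 0.321, or 0.0402 with the block. TXNDC5 overlaps BLOC1S5 on the same strand, so its reads are less certain. The more abundant P4HB averaged 27416 ± 660.4 normalised counts in the dox group and 25866 ± 1033 in the no dox group (± SD, n = 3 each), a log2 difference of 0.08 (limma adjusted p = 0.187 with the block). PDIA4 had a difference of 0.08 as well (limma adjusted p = 0.199 with the block). ERP44, which holds ERO1 enzymes in the ER, and TXNDC11, a thioredoxin-domain protein, had differences of 0.04 and 0.02.

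Of the lectin chaperones, CALR fell with the block and CANX did not pass. CALR had 42494, 31882 and 36357 normalised counts in dox libraries, against 48105, 36071 and 40782 in no dox libraries. The groups overlapped, yet each dox library lay below its partner by nearly the same step, -0.18, -0.18 and -0.17 on the log2 scale. The limma adjusted p was 0.728, and 0.0190 with the block. The unpaired difference of CALR, -0.17, was -0.28 and -0.074 without dox replicates 1 and 2, and -0.065 and -0.27 without no dox replicates 1 and 2. CANX had 31586, 26646 and 30313 normalised counts in dox libraries, against 29563, 25659 and 28638 in no dox libraries. Its difference of 0.08 did not pass with the block (limma adjusted p = 0.227).

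HYOU1 and SDF2L1, which carry ERSE-II, were the folding factors that rose with the block. HYOU1, the large ER chaperone of the HSP70 superfamily that exchanges nucleotide on BiP (chromosome 11, 118914900 to 118927913 in hg19), had 9398, 7528 and 7081 normalised counts in dox libraries, against 8285, 6042 and 5708 in no dox libraries. All 3 pairs were higher in dox, although no dox replicate 1 exceeded dox replicates 2 and 3. The log2 difference was 0.27 (SE 0.16, limma adjusted p = 0.569, and 0.00239 with the block). The pairs of HYOU1 were 0.18, 0.32 and 0.31 on the log2 scale. Its unpaired difference was 0.15 without dox replicate 1, 0.44 without no dox replicate 1 and 0.17 without no dox replicate 3. SDF2L1, a small luminal protein that works with BiP and DNAJB11, had 741.5, 542.7 and 531.8 normalised counts in dox libraries, against 688.9, 403.8 and 389.6 in no dox libraries. The pairs were 0.11, 0.43 and 0.45 on the log2 scale, and the limma adjusted p was 0.645, or 0.0171 with the block. The unpaired difference of SDF2L1 was 0.17 without dox replicate 1, and 0.59, 0.21 and 0.18 without no dox replicates 1, 2 and 3. CRELD2 and MANF, 2 secreted proteins induced by ER stress, had differences of -0.17 and -0.13 and did not pass with the block (limma adjusted p = 0.0660 and 0.0597). Of the 8 genes with ERSE or ERSE-II, 5 differences were above and 3 below 0. HYOU1, SDF2L1 and CALR passed with the block, 3 of the 8, against 22.5% of all tested genes. Whether this share differs from that of all genes was not tested.

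**Figure D3:**
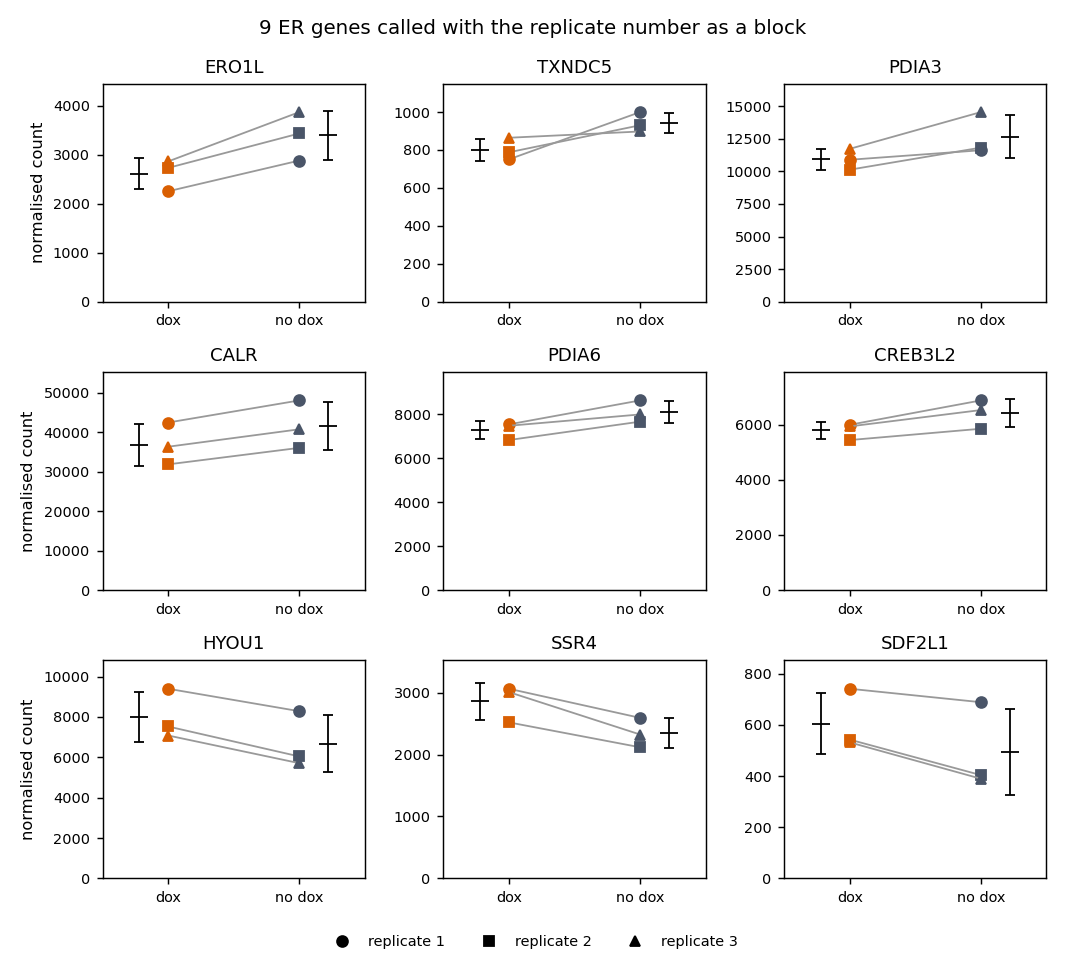
Normalised counts (y axis, from 0) of the 9 genes called with the replicate block, in dox libraries on the left of each panel and no dox libraries on the right, with lines joining libraries of the same replicate number. Bars give mean ± SD of 3 libraries. In each panel all 3 lines slope the same way, while replicate 1 stands above replicates 2 and 3 in both groups for HYOU1, SDF2L1, CALR, SSR4, PDIA6 and CREB3L2.

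In the translocon and export group 1 of 8 genes was called with the block, against 22.5% of all tested genes. SSR4, the delta subunit of the translocon-associated protein complex, had 3062, 2519 and 3008 normalised counts in dox libraries, against 2592, 2117 and 2323 in no dox libraries. Only dox replicate 2 fell below a no dox library. The log2 difference was 0.29 (SE 0.11, limma adjusted p = 0.319, and 0.00225 with the block). SSR4 overlaps IDH3G on the opposite strand, and the sources used here do not say if counting was stranded. The same limit holds for CRELD2, DERL1, DERL2, DERL3, EDEM2, ERO1LB, SEC61A1, SYVN1, TXNDC5 and TXNDC11, which also overlap genes on the opposite strand. The partner subunits SSR1, SSR2 and SSR3 had differences of -0.02, -0.04 and -0.09 and did not pass with the block (limma adjusted p from 0.181 to 0.755). The channel subunits SEC61A1, SEC61B and SEC61G had differences of -0.12, 0.03 and -0.06. SEC24D, a cargo-selecting subunit of the COPII coat, averaged 4266 ± 139 normalised counts in the dox group and 4449 ± 195 in the no dox group (± SD, n = 3 each).

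None of the 10 ERAD genes was called with the block, against 22.5% of all tested genes, or without it, against 0.54%. At an unadjusted limma p under 0.05 without the block the number was also 0, against 13% of all tested genes. Whether 0 of 10 differs from these shares was not tested. SEL1L and SYVN1, the adaptor and the ubiquitin ligase HRD1 of the retrotranslocation complex, had log2 differences of 0.01 and 0.09. SYVN1 overlaps FAU on the same strand, so its reads are less certain. The mannosidase-like proteins EDEM1, EDEM2 and EDEM3 had -0.06, 0.15 and -0.08, and the lectin OS9 had 0.09. EDEM2 had 1143, 1028 and 1053 normalised counts in dox libraries, against 970.3, 914.2 and 1022 in no dox libraries, and OS9, like EDEM2, showed no overlap between the groups. EDEM2 overlaps MMP24-AS1 on the same strand, so its reads are less certain. DERL1, DERL2 and DERL3 had -0.07, 0.10 and -0.21, the last with 42.06, 37.9 and 28.65 normalised counts in dox libraries, against 60.82, 38.59 and 30.35 in no dox libraries. HERPUD1, a stress-induced ERAD scaffold with an ERSE-II, had 1678, 1676 and 1423 normalised counts in dox libraries, against 1256, 1509 and 1564 in no dox libraries. The groups overlapped, and the limma adjusted p was 0.265 with the block.

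Among XBP1, ERN1, ATF6, CREB3L2 and WFS1, which signal in the UPR or belong to its wider set of genes, CREB3L2 fell with the block and the other 4 did not pass. Of all tested genes 22.5% were called with the block, 12.4% of them lower, so 1 call in this group is near that share. CREB3L2, a transcription factor held in the ER membrane until it is cleaved, had 6003, 5448 and 5944 normalised counts in dox libraries, against 6888, 5859 and 6538 in no dox libraries. The groups overlapped, all 3 pairs were lower, and the log2 difference of -0.15 had a limma adjusted p of 0.562, or 0.0291 with the block. Without no dox replicate 1 the unpaired difference of CREB3L2 was -0.10. XBP1 had 3043, 2105 and 2014 normalised counts in dox libraries, against 2717, 2196 and 2299 in no dox libraries. Replicate 1 was the highest library of both groups, and the log2 difference of -0.03 had a 95% interval from -0.41 to 0.35. Without pair 1 the difference of XBP1 was -0.13 with the block (limma adjusted p = 0.0466). ATF6 had 3429, 2812 and 3203 normalised counts in dox libraries, against 3346, 3059 and 3301 in no dox libraries, a log2 difference of -0.04. ERN1 had 218.2, 153.6 and 140.5 normalised counts in dox libraries, against 130.4, 132.6 and 146.6 in no dox libraries. Dox replicate 1 stood well above the rest, and the log2 difference of 0.30 had a limma adjusted p of 0.587, or 0.185 with the block. WFS1, the ER membrane protein wolframin, averaged 2547 ± 196.8 normalised counts in the dox group and 2550 ± 237.7 in the no dox group (± SD, n = 3 each).

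The 38 genes also differed between replicate numbers. The spread over replicate numbers was taken as the highest minus the lowest of 3 means, each of 2 libraries. It exceeded the difference between dox and no dox for 31 of the 38 genes (81.6%), against 76.6% of all tested genes. A range over 3 means tends to exceed a single difference of 2 means, so these shares do not rank the 2 sources of variation. Replicate 1 was the highest library of both groups for 24 of the 38 (63.2%), against 27.2% of all tested genes, and the lowest of both for 2 (5.26%), against 26%. It was also the highest of both for 66 of the 141 tested genes in the further secretory pathway groups described below, so this order was not confined to the 38. Among those groups the order ran from 2 of 10 genes of the PERK arm to 6 of 8 prolyl isomerases. These counts were chosen after the values had been seen and are given as a description. Replicate 1 exceeded the mean of replicates 2 and 3 by 0.63 on the log2 scale for SDF2L1, 0.58 for DERL3, 0.50 for CRELD2 and 0.44 for both SEC61A1 and MANF. ERO1L ran the other way, at -0.33. The median was 0.15 over the 38 genes and -0.0014 over all tested genes. By role, replicate 1 was highest in both groups for 7 of 8 translocation and export genes, 10 of 15 folding factors, 4 of the 5 genes that hold the UPR sensors, factors and WFS1, and 3 of 10 ERAD genes. Of the 8 genes with ERSE or ERSE-II in the promoter, 7 had this order, HERPUD1 being the exception. Replicate 2 was deeper and replicate 3 shallower than replicate 1 in both groups, and the part of depth in this order was not tested. What libraries of the same number share is not stated in the labels.

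**Figure D4:**
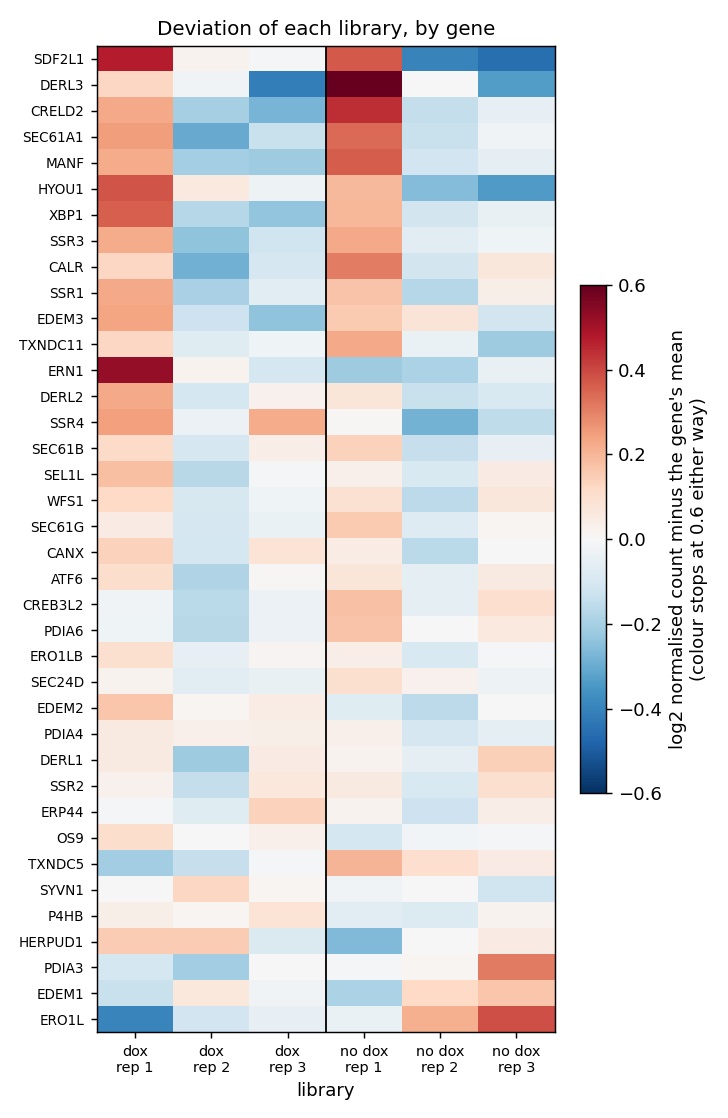
Level of each of the 38 genes (rows, ordered by how far replicate 1 exceeds the others) in each library (columns, dox replicates 1 to 3 left of no dox replicates 1 to 3), as the log2 difference from the gene's mean over 6 libraries. The first column of each group holds most of the high values, as for SDF2L1 and SEC61A1, while ERO1L is lower in the dox columns.

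The HSP and DNAJ chaperones of the ER showed the same order in 7 of 10 genes, against 27.2% of all tested genes. HSPA5 (BiP, the main ER HSP70) had 26680, 17841 and 21116 normalised counts in dox libraries, against 27814, 18762 and 21276 in no dox libraries, and DNAJB11, its co-chaperone, rose with the block (log2 difference 0.32, limma adjusted p = 0.00402). Leaving out dox replicate 1 gave DNAJB11 an unpaired difference of 0.21, and leaving out no dox replicate 1 gave 0.50. SIL1, a nucleotide exchange factor of BiP, had a difference of 0.14.

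Beyond the 38 genes, 141 of 143 listed genes in 9 further groups of the secretory pathway were tested, and 0 passed limma without a block, with 7 at an unadjusted p under 0.05. On recovered reads edgeR called 0 of them, and DESeq2 called TMX1 and ERLIN1 lower and UBXN8 higher (adjusted p = 0.0366, 5.48e-05 and 0.0404). With the block 7 rose and 16 fell, beside the background of 10.2% and 12.4% of all tested genes. The median log2 difference of the 141 genes was -0.020. Of 10 genes of the PERK arm, the branch that slows translation, 0 passed with the block, and their median was 0.12. DDIT3 (CHOP), a transcription factor of prolonged ER stress, had 204.7, 124.1 and 96.45 normalised counts in dox libraries, against 103, 134 and 92.36 in no dox libraries, so that dox replicate 1 alone stood apart. TRIB3 and SESN2 each had a log2 difference of 0.34 (limma adjusted p = 0.280 and 0.0532 with the block), which without dox replicate 1 was -0.019 for TRIB3 and -0.0044 for SESN2.

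Of 27 other ERAD genes 1 rose and 3 fell with the block, against 10.2% and 12.4% of all tested genes. ERLIN1, a membrane protein that marks the IP3 receptor for degradation, had 4100, 3645 and 3991 normalised counts in dox libraries, against 5385, 5244 and 5776 in no dox libraries. Its groups were far apart, and the log2 difference of -0.48 (SE 0.08) had a limma adjusted p of 0.0513, just short of the threshold, and of 0.000147 with the block. UBXN8, an ER protein that recruits the p97 ATPase, had 371.9, 244.9 and 290.6 normalised counts in dox libraries, against 203.2, 199.3 and 182.4 in no dox libraries. The groups did not overlap, and the limma adjusted p was 0.152, or 0.00487 with the block.

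The calls in the remaining groups that follow are those with the block, where 10.2% of all tested genes rose and 12.4% fell. Whether the share of any group differs from these was not tested. Of 14 thiol oxidoreductases 1 rose and 3 fell, among them TMX1, a membrane-bound disulfide isomerase, with a log2 difference of -0.28 (limma adjusted p = 0.00347), and TXNDC16, with -0.30, or -0.19 without dox replicate 3. Of 20 genes of the COPII coat and its cargo receptors 2 rose and 5 fell, with SEC23B at 0.25 and SEC24A at -0.23. Of 20 genes of N-glycosylation and the calnexin cycle 0 rose and 2 fell, while TUSC3 and LMAN1, each at -0.13, did not pass. Of 22 genes of signal recognition, insertion and signal peptidase 1 rose and 1 fell, with the targeting ATPase ASNA1 at 0.19, which passed, and GET4 at 0.27, which did not. Of 8 prolyl isomerases 1 rose, FKBP2 (log2 difference 0.23, with FKBP10 at -0.08 and not passing), and of 10 UPR proteases and related factors 2 fell, MAP3K5 (-0.31) and NFE2L1 (-0.17).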

How the data were processed

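RNA-seq of 3 dox and 3 no dox libraries was analysed. Per the submitters' processing notes, the tools were bcl2fastq, Trimmomatic, TopHat and edgeR on hg19, in roles and versions not given in the sources used here, nor is the handling of strand and multi-mapped reads. The authors deposited CPM, FPKM (CPM divided by a gene width in kilobases, tested on the values), normalised counts (a signal scaled between libraries, formula not given in the sources used here) and a comparison table with log2 fold changes, likelihood ratio scores and p-values. The deposited CPM values gave whole reads for 100.0% of values in each library within 0.01, and library totals come from these. Enough low values to check this formally (100 genes at 20 reads or fewer) stood in 3 of the 6 libraries, dox replicate 3 and no dox replicates 1 and 3, so read totals and count tests are less certain for the others.

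Limma 3.58.1 (R 4.3.3, trend on) was run on log2(normalised count + 1), so fold changes of low genes are understated. Of 13161 genes, 13153 reached 10 normalised counts in 3 libraries or more, and Benjamini-Hochberg adjustment ran over those. Deviations from the group means correlated within each replicate number (0.745, 0.726 and 0.768). The pairing was inferred from this and is not stated in the labels. Values with the number as a block therefore stand beside results whose call it changes. Alternatives were edgeR 4.0.16 and DESeq2 1.42.0 on recovered reads, other pseudocounts, filters and scalings, and FPKM. Each library was also left out without a block, and each pair with the block. A left-out library's partner stayed in, so differences between replicate numbers enter those values. Scripts were tested on simulated data. Full statistics were set for members called with or without the block, the 3 with the highest level per length, XBP1, ERN1 and ATF6, and for FOXM1. From each further list the 2 genes with the smallest limma p were named, with HSPA5 and DDIT3. The members and lists were chosen with earlier results of these data known. Promoters are from RefSeq (GRCh38.p14), matched by symbol.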

Additional observations from a re-analysis of the deposited data

How the results depend on the processing

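The number of the 38 genes called was 0 in each direction without a block under every pseudocount, filter, scaling and left-out library run, under edgeR and under DESeq2. With the replicate block it was 3 higher and 6 lower in limma and in edgeR, and leaving out a pair gave 2 to 4 higher and 1 to 12 lower. The median log2 difference of the 38 genes ran from -0.072 to 0.048 when 1 library was left out. The number of all genes called was 71 without a block, 31 on FPKM, 520 with DESeq2, 2965 with the block in limma, 3058 with the block in edgeR, 1414, 1779 and 3835 with the block and a pair left out, and 3 to 21 with 1 library left out.

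Signs of some uncalled genes turned when libraries were left out. XBP1 reached 0.051 without pair 3, 0.048 and 0.080 without dox replicates 2 and 3, and 0.062 without no dox replicate 1, and its lowest value was -0.22. ATF6 ran from -0.11 to 0.036 and HSPA5 from -0.20 to 0.11, with HSPA5 at 0.089 without dox replicate 2. DDIT3 was -0.024 and TRIB3 -0.080 without pair 1. Over single libraries left out, TRIB3 ran from -0.019 to 0.61 and SESN2 from -0.0044 to 0.53. Those single-library fits had no block, so the partner of the left-out library stayed in. With the block and pairs 1, 2 and 3 left out in turn, HSPA5 stayed below 0 (-0.042, -0.036 and -0.066). ATF6 also stayed below 0 there (-0.083, -0.0043 and -0.043), and SESN2 stayed above 0 (0.15, 0.38 and 0.50). The cause was not tested. Depth of 15094498 to 49882123 reads limits DERL3, which had as few as 14 reads, most.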
